A study of Mus musculus with 2 samples.

Results

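This account covers 10 genes of heme breakdown and iron handling, of 13549 listed in the deposited table, in microglia sorted from the mouse retina. They are the heme transporter Slc48a1, the heme-degrading enzymes Hmox1, Blvra and Blvrb, the ferritin chains Fth1 and Ftl1, the ferritin receptor Ncoa4, and the iron transport genes Tfrc, Slc11a1 and Slc40a1. All 10 were found by gene symbol, and all 10 had at least 20 reads. They were chosen by their role and with the read counts of Hmox1, Fth1 and Ftl1 in these same libraries already known. The ratios below are therefore a description, without a test.

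Microglia are the resident macrophages of nervous tissue. Both libraries came from animals of the genotype CD11c-Cre-gfp;Rosa-TDTom at postnatal day 5. In these animals the promoter of CD11c (Itgax) drives a Cre recombinase with GFP, and Cre switches on a permanent TdTomato reporter. The Cd11c-active library was made from 4041 cells with GFP and TdTomato, and the Cd11c-lineage library from 5441 cells with TdTomato alone. All cells came from a pool of 8 retinas, so both libraries share their animals. For this pool the labels give 4 female and 4 male, without saying whether these count retinas or animals. Each group had 1 library, so no ratio below has a replicate check, and no p-value is given. By its title, the study concerns microglia that use CD11c and what contact with dying cells does to them. The 12 homeostatic microglial markers were all present, with summed levels of 22489 and 21574 CPM (counts over the scaled library size) in Cd11c-active and Cd11c-lineage.

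Macrophages take up heme with the cells and debris they engulf. Slc48a1 moves heme out of the lysosome, heme oxygenase 1 (Hmox1) opens the ring and frees iron, and the biliverdin reductases Blvra and Blvrb reduce the biliverdin that is left. Freed iron is stored in ferritin, a shell of heavy (Fth1) and light (Ftl1) chains, or leaves the cell through ferroportin (Slc40a1). Transferrin receptor 1 (Tfrc) brings iron in from outside, Slc11a1 pumps metal ions out of the phagosome, and Ncoa4 delivers ferritin for degradation. When iron is scarce, the iron regulatory proteins bind a hairpin in these transcripts, the iron responsive element. In a 5' UTR the bound hairpin blocks translation of ferritin and ferroportin, and in the 3' UTR of Tfrc it protects the transcript from decay.

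These hairpins are shown because they are a sequence feature that part of the 10 genes share. Ferritin, ferroportin and Tfrc are known for this hairpin, so the choice of genes by role largely fixed the count below in advance. The search, on the transcript strand of the annotated protein-coding transcripts (GENCODE M21, GRCm38), asked for CNNNNNCAGTGN with a last loop base other than G. All 5 pairs of the upper stem and at least 3 of 5 pairs of the lower stem had to form, with G-T pairs allowed. It found the hairpin in 4 of the 10 genes, in each case in a UTR, against 23 (0.198%) of the 11628 protein-coding genes with at least 20 reads when only matches in a UTR are counted. Capitals mark the bulged C and the loop.
Fth1 5' UTR, chr19:9982733-9982759 (+): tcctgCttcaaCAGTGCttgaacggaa
Ftl1 5' UTR, chr7:45459780-45459806 (-): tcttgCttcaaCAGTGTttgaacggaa
Slc40a1 5' UTR, chr1:45925466-45925492 (-): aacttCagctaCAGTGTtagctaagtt
Tfrc 3' UTR, chr16:32631220-32631246 (+): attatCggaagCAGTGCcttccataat
Tfrc 3' UTR, chr16:32631599-32631625 (+): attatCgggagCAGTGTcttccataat
Tfrc 3' UTR, chr16:32631664-32631690 (+): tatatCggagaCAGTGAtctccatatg
Tfrc 3' UTR, chr16:32631711-32631737 (+): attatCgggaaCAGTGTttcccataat
The 4 Tfrc hairpins lie within a single 3' UTR. The other 6 genes gave no match in this search, in which both the letters and the stem pairs were required.

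The libraries held 12943998 reads (Cd11c-active) and 13402625 reads (Cd11c-lineage). The 10 genes took 0.637% of the reads in Cd11c-active (Wilson 95% interval 0.633 to 0.641) and 0.369% in Cd11c-lineage (0.366 to 0.373). Ratios are Cd11c-active over Cd11c-lineage on the log2 scale after TMM scaling, with exact 95% intervals that cover counting error only, and a 2-fold difference (log2 ratio of 1) is the threshold used. Genes of few reads differed widely between the libraries. The range holding the middle 95% of the 500 genes nearest in reads is therefore given beside the ratio of each of the 10 genes, as a measure of spread that also contains true differences. By this threshold 4 of the 10 genes were higher in Cd11c-active, against 23.3% of the 13037 genes with at least 20 reads, and 0 were lower, against 21.6%. The median of the 10 ratios was 0.36, and that of all tested genes 0.01. Of the 8 with at least 1000 reads 3 were higher, where the share of all such genes was 5.43%. Under scaling to library totals, and likewise without the trend with length and GC content described below, 2 of the 10 were higher (Hmox1 and Blvrb), against 21.6% and 21.9% of all tested genes. In bulk libraries, fewer cells of a type and less RNA per cell cannot be told apart.

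**Figure D1:**
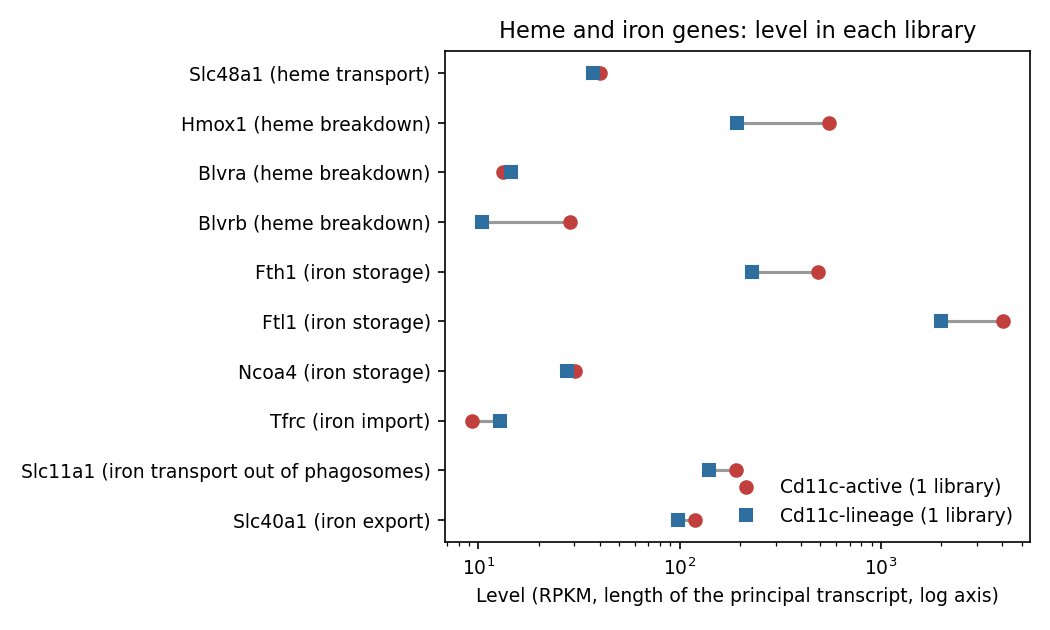
Level of each of the 10 genes in both libraries, as RPKM (CPM per kilobase of the principal transcript) on a log axis. Circles are the Cd11c-active library and squares the Cd11c-lineage library. The widest gaps are those of Hmox1 (553 against 194), Blvrb (28.6 against 10.5), Fth1 (489 against 229) and Ftl1 (4052 against 1988).

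Of the heme breakdown genes, Hmox1 and Blvrb were past the threshold, and Slc48a1 and Blvra were under it. Slc48a1, which hands heme from the lysosome to the cytosol, had 1252 Cd11c-active and 1328 Cd11c-lineage reads (101 and 94.5 CPM). Its log2 ratio was 0.10 (-0.01 to 0.21), within a neighbour range of -1.04 to 1.03. It turned to -0.03 under scaling to library totals and -0.07 once a trend with length and GC of the transcript was taken out. Hmox1, the first enzyme, had 10718 Cd11c-active and 4272 Cd11c-lineage reads (868 and 304 CPM). The Cd11c-active level was 2.86-fold the other, a log2 ratio of 1.51 (1.46 to 1.57). The middle 95% of the 500 genes nearest to Hmox1 in reads ran from -0.63 to 0.72, and 2 of the 500 had a ratio at least as high.

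The second heme oxygenase, Hmox2, which most cells make at a steady level, had 2019 Cd11c-active and 2318 Cd11c-lineage reads, a log2 ratio of -0.01 (-0.10 to 0.07). Within a library the count of Hmox1 over that of Hmox2 needs no scaling between libraries. It was 5.31 (5.06 to 5.57) in Cd11c-active and 1.84 (1.75 to 1.94) in Cd11c-lineage. Against Csf1r, a receptor that microglia depend on, Hmox1 reads stood at 0.136 in Cd11c-active and 0.0462 in Cd11c-lineage. Both within-library comparisons thus put Hmox1 higher in Cd11c-active by 2.88-fold and 2.93-fold, with the trend with length and GC left in.

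The biliverdin reductases had few reads. Blvra, the main adult enzyme, had 190 Cd11c-active and 237 Cd11c-lineage reads (15.4 and 16.9 CPM), a log2 ratio of -0.13 (-0.42 to 0.15) within a neighbour range of -2.79 to 5.19. Blvrb, which also reduces flavins, had 363 and 151 reads, or 29.4 and 10.7 CPM. Its log2 ratio was 1.45 (1.17 to 1.74), a 2.73-fold higher level in Cd11c-active that lay past the threshold. Blvrb reads were 1.91 times those of Blvra in Cd11c-active (1.60 to 2.29) and 0.637 times in Cd11c-lineage (0.516 to 0.785). The ratio of Blvrb lies inside the spread of genes with as few reads, which ran from -2.32 to 3.83. Of its 500 neighbours 73 were at least as high, and of all genes with at least 200 and under 1000 reads 23.3% passed the threshold in this direction.

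A promoter motif was searched in the genes for which a promoter window was given, because Hmox1 is a classical target of the oxidative stress factor NRF2 (Nfe2l2). The motif was the core antioxidant response element TGACNNNGC, on both strands, in windows from 250 bases before to 50 after a start site (RefSeq, GRCm38.p6). Windows were given for 7 of the 10 genes, and not for Hmox1, Slc40a1 and Slc48a1. Of 12 windows 2 held a match, at Blvra and at 1 start site of Ncoa4, against 12.4% of all 32851 windows. The Blvra and Ncoa4 matches are shown with their surroundings, matched letters in capitals, to set them beside the ratios of these genes, which were under the threshold.
Blvra, chr2:127070582-127070642 (+): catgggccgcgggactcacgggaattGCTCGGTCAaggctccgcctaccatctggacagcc
Ncoa4, chr14:32165719-32165779 (+): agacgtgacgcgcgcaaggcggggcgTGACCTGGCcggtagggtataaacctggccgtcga
A match is a run of letters, not a site shown to be bound.

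**Figure D2:**
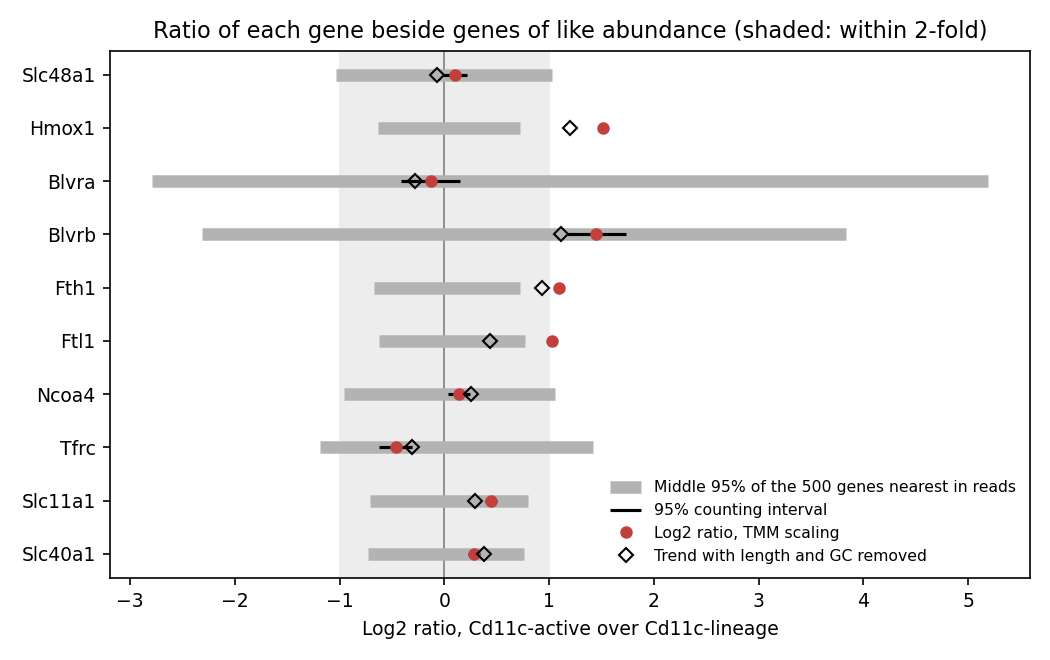
Log2 ratio of each of the 10 genes (filled circles) with its 95% counting interval (black lines, hidden by the symbol for abundant genes), and the ratio without the trend with length and GC of the transcript (open diamonds). Grey bars hold the middle 95% of the 500 genes nearest in reads; the circles of Hmox1, Fth1 and Ftl1 lie to the right of their bars, and the diamond of Ftl1, at 0.44, lies inside.

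Both ferritin chains were higher in Cd11c-active. Fth1, the chain with the iron-oxidising centre, had 9029 Cd11c-active and 4808 Cd11c-lineage reads (731 and 342 CPM). Its log2 ratio was 1.10 (1.05 to 1.15), or 2.14-fold. Ftl1, the chain that helps iron settle inside the shell, had 48423 and 27042 reads, or 3922 and 1925 CPM. Its log2 ratio was 1.03 (1.01 to 1.05), or 2.04-fold. The nearest 500 genes ran from -0.67 to 0.72 for Fth1 and from -0.63 to 0.77 for Ftl1, and 4 of 500 were at least as high in each case. Both ferritin ratios were thus beyond the spread of their nearest genes in reads, though close to the 2-fold threshold. For Ftl1, with 75465 reads over both libraries, these nearest genes had from 8001 to 282541 reads, so many differed from it in abundance.

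The ferritin calls depended on the processing. Under scaling to library totals the log2 ratios were 0.96 for Fth1 and 0.89 for Ftl1, and Ftl1 was 0.97 when libraries were scaled to homeostatic microglial genes. Ftl1 has a short transcript (968 bases) with a GC content of 58.1%, and the trend fitted over all well-measured genes stood at 0.59 for such a transcript. With that trend removed Ftl1 stood at 0.44, inside the range of its neighbours, and Fth1 at 0.93. Hmox1 stood at 1.20 and Blvrb at 1.12, both still past the threshold.

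In read counts, with the trend with length and GC content left in, the balance of the ferritin chains was nearly the same in both libraries. With the trend removed the chains differed, at 0.93 for Fth1 and 0.44 for Ftl1. Ftl1 had 5.36 reads for each Fth1 read in Cd11c-active (5.24 to 5.49) and 5.62 in Cd11c-lineage (5.45 to 5.80). Per length of the principal transcript the light chain stood 8.28-fold and 8.68-fold above the heavy chain, and 13.9-fold and 14.6-fold per length of all annotated exons, so this level depends on the gene model. The ferritin genes together took 0.444% of reads in Cd11c-active (Wilson 0.440 to 0.447) and 0.238% in Cd11c-lineage (0.235 to 0.240).

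Reads of ferritin genes can be shared with their processed copies. The table listed 3 ferritin pseudogenes, and all 3 had most of their reads in Cd11c-active. Ftl1-ps1 had 89 Cd11c-active and 11 Cd11c-lineage reads, and Ftl2-ps had 22 and 0. Fth-ps2 had 54 and 0, a 20.5-fold higher level in Cd11c-active when the count of 0 is taken as 3 reads. At such depth this is common, as 63.0% of all genes with at least 20 and under 200 reads had 0 in 1 library. Whether the pseudogene reads came from the parent genes was not tested. Added to their parents, these reads left Fth1 at 1.10 and Ftl1 at 1.03.

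Ncoa4, the receptor that carries ferritin to the lysosome for release of its iron, had 1523 and 1573 reads, or 123 and 112 CPM. Its log2 ratio was 0.14 (0.04 to 0.24), within a neighbour range of -0.95 to 1.05, and 0.004 under library totals. In read counts Fth1 was therefore higher relative to Ncoa4 in Cd11c-active, with 5.93 Fth1 reads for each Ncoa4 read (5.61 to 6.26). In Cd11c-lineage there were 3.06 (2.89 to 3.24). With the trend with length and GC content removed, the log2 ratios were 0.93 for Fth1, 0.44 for Ftl1 and 0.26 for Ncoa4.

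**Figure D3:**
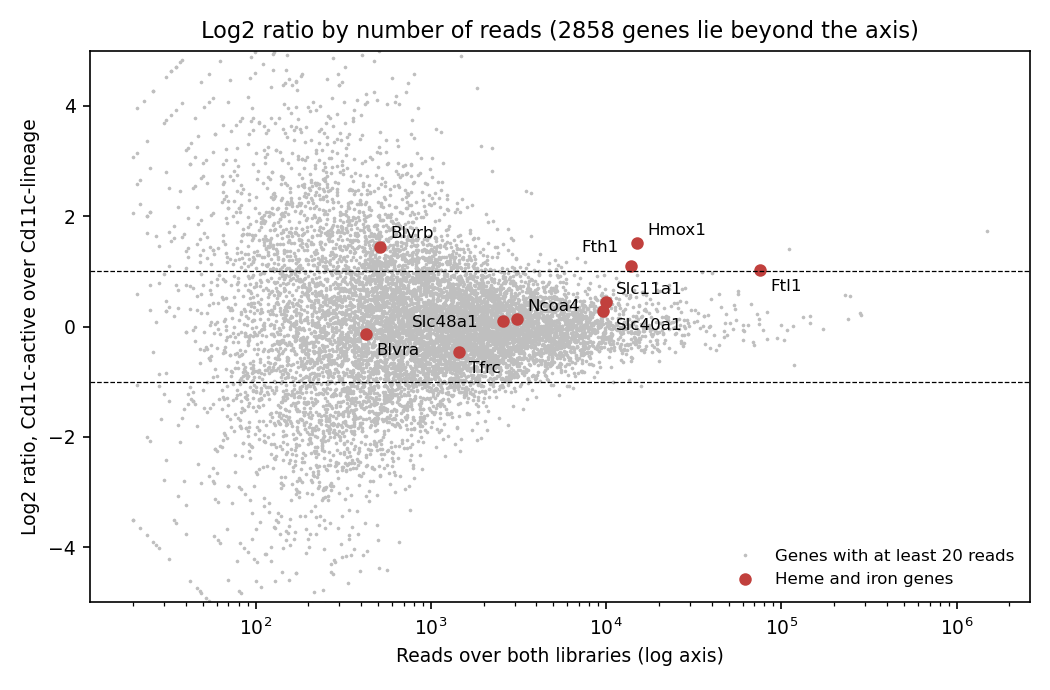
Log2 ratio of each gene with at least 20 reads (grey) against its reads over both libraries on a log axis, with the 10 genes in red and the 2-fold threshold as dashed lines. The spread narrows with reads, so Blvrb at 1.45 lies among many genes as far from 0, while Hmox1 at 1.51 lies among few; 2858 genes lie beyond the axis.

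All 3 iron transport genes were under the threshold. Tfrc, the importer, had 560 Cd11c-active and 880 Cd11c-lineage reads (45.4 and 62.6 CPM), a log2 ratio of -0.47 (-0.62 to -0.31). It was lower in Cd11c-active under each of the 7 alternatives that recompute its ratio, from -0.60 to -0.30, and inside its neighbours' range of -1.19 to 1.42. Slc40a1, the exporter, had 4974 and 4663 reads, or 403 and 332 CPM, a log2 ratio of 0.28 (0.22 to 0.34). Slc11a1, the phagosomal pump, had 5421 and 4543 reads, or 439 and 323 CPM, a ratio of 0.44 (0.38 to 0.50). Both were inside the ranges of their neighbours (-0.73 to 0.76 and -0.71 to 0.80), with 108 and 61 of 500 at least as high.

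The genes that hold an iron responsive element did not share a direction. The 5' element genes Fth1 and Ftl1 were past the threshold, Slc40a1 with the same kind of element was at 0.28, and Tfrc with its 3' elements was at -0.47. Storage over import, as Fth1 reads for each Tfrc read, was 16.1 (14.8 to 17.6) in Cd11c-active and 5.46 (5.08 to 5.88) in Cd11c-lineage. Export over import, as Slc40a1 reads for each Tfrc read, was 8.88 (8.14 to 9.71) and 5.30 (4.93 to 5.70). The first of these balances differed 2.95-fold between the libraries and the second 1.68-fold. Both are free of library scaling, but the trend with length and GC content is left in. With that trend removed the log2 ratios were 0.93 for Fth1, 0.37 for Slc40a1 and -0.30 for Tfrc.

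The order of the levels per length was led by Ftl1 in both libraries, at 4052 RPKM in Cd11c-active and 1988 in Cd11c-lineage. Hmox1 and Fth1 followed, at 553 and 489 in Cd11c-active and 194 and 229 in Cd11c-lineage, and per length of all annotated exons Hmox1 stood above Fth1 in both libraries. Slc11a1 (189.7 and 139.7) and Slc40a1 (119.5 and 98.5) came next. Slc48a1, Ncoa4, Blvra, Blvrb and Tfrc were at 9.28 to 40.0 in Cd11c-active and 10.5 to 37.3 in Cd11c-lineage. With 1 library each, neighbours in this order cannot be separated beyond replicate spread.

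Hmox1, Fth1 and Ftl1 were among the widest differences of abundant transcripts. Of 356 genes with at least 10000 reads 6 (1.69%) were higher in Cd11c-active by the threshold, and these 3 ranked at 3, 5 and 6. Without the trend with length and GC content they ranked at 3, 4 and 27 of 355. The genes next to Hmox1 were the basement membrane collagen Col4a1 (log2 ratio 6.60), the ribosomal RNA Rn18s (1.73) and the mitochondrial leucyl-tRNA synthetase Lars2 (1.40). With ribosomal, mitochondrial, 7SK and 7SL genes left out before TMM, the log2 ratios were 1.513 for Hmox1, 1.095 for Fth1 and 1.027 for Ftl1. Any part of residual ribosomal RNA in the ratios other than through TMM scaling was not tested.

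Markers of other cell types also differed between the sorts, and whether their transcripts came from such cells or from engulfed material was not tested. All 8 endothelial markers were higher in Cd11c-active, with summed levels of 646 CPM against 73.7 in Cd11c-lineage, and Cldn5, Flt1, Tek, Esam and Plvap had 0 reads in Cd11c-lineage. The 5 pericyte markers summed to 62.8 CPM in Cd11c-active, against 0 reads in Cd11c-lineage. The 4 border macrophage markers listed summed to 21.2 and 128 CPM, with Lyve1, F13a1 and Cd163 (also in the heme uptake list) at 0 in Cd11c-active. The 4 monocyte and neutrophil markers listed summed to 2.83 and 17.0 CPM, though Ccr2 among them had 35 Cd11c-active and 0 Cd11c-lineage reads. The 6 retinal neuron markers listed summed to 48.1 and 135 CPM, and the 4 of Muller glia and astrocytes to 185 and 118 CPM. Most reads of the latter were of Vim (2069 and 1005), while Slc1a3 had 73 and 642. Of 10 erythroid markers 1 was listed, Hbb-bt, with 0 and 31 reads. A count of 0 in 1 of the libraries was common, in 63.0% of all genes with at least 20 and under 200 reads. All 8 endothelial markers lay outside the range of their 500 nearest genes in reads. So did 2 of 4 tested pericyte, 1 of 4 border macrophage and 0 of 4 monocyte and neutrophil markers. Of the retinal neuron markers 1 of 6 did, and of those of Muller glia and astrocytes 2 of 4, while Hbb-bt did not. The part of these cells in the ratios of Hmox1 and the ferritin genes was not tested.

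**Figure D4:**
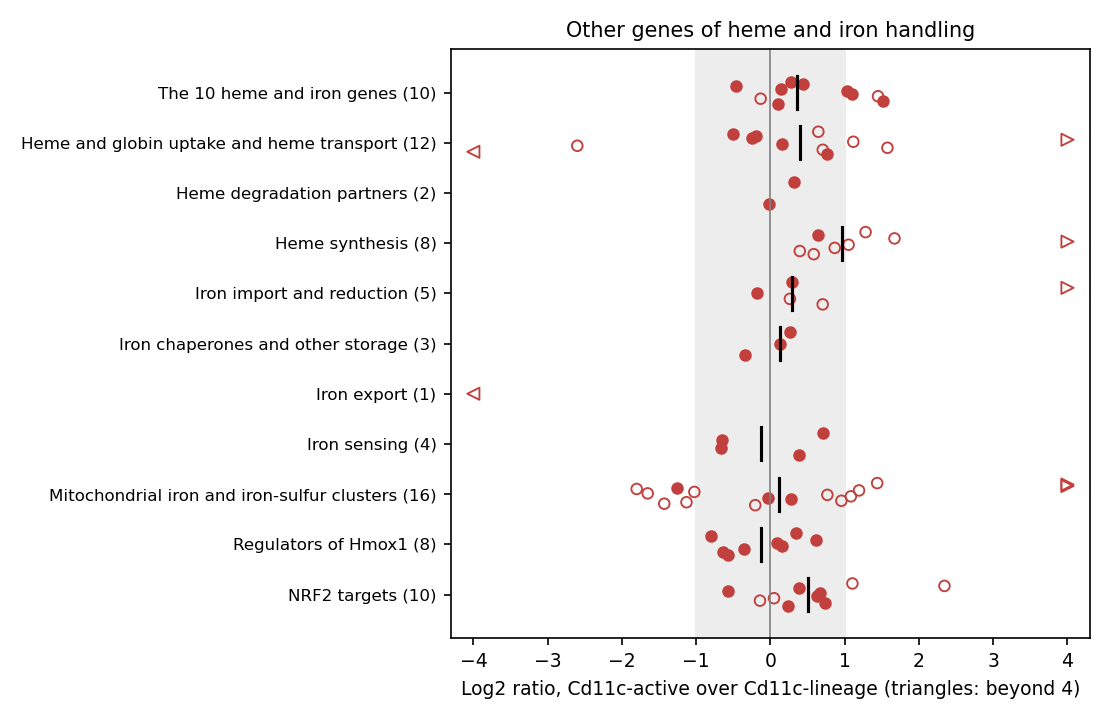
Log2 ratios of the 10 genes and of 10 lists of other heme and iron genes, with the number of tested genes in parentheses. Filled symbols have at least 1000 reads over both libraries, triangles lie beyond 4, black bars are medians (lists of over 2 genes) and the shaded band is within 2-fold; all filled symbols of the lists except that of Isca1 lie inside the band, and those of Hmox1, Fth1 and Ftl1 lie to its right.

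The wider pathway was described by 10 lists of 89 other genes, chosen by their roles. Of these 69 had at least 20 reads, of which 15 were higher in Cd11c-active by the 2-fold threshold and 9 lower, against 23.3% and 21.6% of all tested genes. Their median log2 ratio was 0.29 (0.15 under library totals), and 0 of the 69 lay outside the range of the 500 genes nearest in reads. With counts of 0 set to 3 reads this median was the same. Among the 34 with at least 1000 reads, 1 was past the threshold in either direction, where the share of all such genes was 9.57%. That gene was Isca1, an iron-sulfur cluster assembly factor, with 354 and 965 reads and a ratio of -1.26 (-1.44 to -1.08), within a neighbour range of -1.28 to 1.61.

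Heme synthesis genes lay above 0 in all 8 cases, with a median log2 ratio of 0.96 and 4 past the threshold in Cd11c-active, against 23.3% of all tested genes. Under library totals the median was 0.82 and 3 were past it, with Urod at 0.92. Uros, 1 of these 4 and a later enzyme of the pathway named after its values were seen, had 85 and 0 reads. Among all genes with at least 20 and under 200 reads, 63.0% had 0 reads in 1 of the libraries. Alas1, the rate-limiting enzyme, was the best measured, with 1282 and 934 reads and a ratio of 0.64 (0.52 to 0.77). Of heme uptake and transport genes 3 of 12 were higher by the threshold (Slc46a1, Flvcr2 and Abcb10) and 2 lower (Cd163 and Abcb6), shares near those of all tested genes (23.3% and 21.6%). Abcb10 was at 1.12 and, under library totals, at 0.98. Their best measured gene was Lrp1, the receptor for heme bound to hemopexin, with 44118 and 59412 reads and a ratio of -0.24 (-0.26 to -0.23). Cd163, which takes up hemoglobin with haptoglobin, had 0 and 134 reads.

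Iron import and reduction genes had a median of 0.29 over 5, led in reads by the importer Slc11a2 at -0.19 (-0.35 to -0.03). Of the 5, 1 was higher by the threshold, Steap3 (133 and 0 reads), against 23.3% of all tested genes. Of all genes with at least 20 and under 200 reads, 63.0% had 0 reads in 1 of the libraries. The list of iron chaperones and other storage genes held the chaperones Pcbp1 and Pcbp2 and the ubiquitin ligase Herc2, with a median of 0.13 (-0.01 under library totals). Its best measured gene was Herc2, which marks Ncoa4 for degradation, at -0.34 (-0.38 to -0.31). Of the export list Cp, a ferroxidase, had 0 Cd11c-active and 163 Cd11c-lineage reads. The genes of the iron regulatory proteins, which bind the hairpins shown above, were both lower within 2-fold. Ireb2 had 1174 and 2101 reads and a ratio of -0.65 (-0.76 to -0.55). Aco1, named after its values were seen, had 1079 and 1946 reads and a ratio of -0.66. The 4 iron sensing genes had a median of -0.13 and 0 past the threshold, where 9.57% of all genes with at least 1000 reads, as these 4 had, were past it in either direction.

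Mitochondrial iron and iron-sulfur genes split, with 5 of 16 higher by the threshold, 6 lower and a median of 0.12 (-0.02 under library totals), against 23.3% and 21.6% of all tested genes. Nfs1, among the 5 higher, was at 0.95 under library totals. Of the 5 higher, Bola3 (95 reads) and Lyrm4 (148 reads), named after their values were seen, had 0 reads in Cd11c-lineage. Mms19, the best measured, was at 0.27 (0.13 to 0.41), and Slc25a37, the mitochondrial iron importer, had 106 and 246 reads. Of 8 regulators of Hmox1, 7 transcription factors and the ubiquitin ligase adaptor Keap1 that binds NRF2, all with at least 1000 reads, 0 were past the threshold (9.57% of all such genes), and the median was -0.13. Bach1, its repressor, was at 0.09 (0.03 to 0.15), with 4156 and 4434 reads, and at -0.04 under library totals. Nfe2l2, its activator, had 1531 and 2705 reads and a ratio of -0.63. Of 10 NRF2 targets 2 were higher by the threshold (Srxn1 and Me1), a share near the 23.3% of all tested genes, and the median was 0.51. Under library totals the median was 0.37, and Srxn1 went from 1.10 to 0.97, under the threshold. The best measured, the autophagy receptor Sqstm1, was at 0.24 (0.20 to 0.28). Hmox1 at 1.51 was above all of these but Me1, which had 82 and 18 reads.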

How the data were processed

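Bulk RNA sequencing was done on total RNA after ribosomal depletion, with stranded libraries, per the labels' protocols. The authors deposited raw counts per gene, per the file headers. The submitters' processing notes name cutadapt 3.5, STAR 2.7.9a, featureCounts 1.6.3, edgeR 4.0.16 and GRCm39. The annotation release and the strand setting are not given in the sources used here, so reads of overlapping genes may be shared. Beside the counts, the deposited table has the authors' log2 fold change and log2 average CPM, which were not used for the results. Columns of unmapped samples numbered 0.

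Library sizes were scaled with TMM (edgeR 4.0.16, R 4.3.3), with factors of 0.954 and 1.05. The log2 ratio was that of counts plus 0.5 over scaled library size, with Clopper-Pearson intervals (scipy 1.17.1). Because no molecular identifiers were used, intervals cover counting error only. A count of 0 allows 3 reads, or 0.243 and 0.214 CPM. Neither edgeR's quasi-likelihood test nor DESeq2 could be fitted to single libraries. Genes with under 20 reads were left out, and the procedure was tested on simulated data. Levels per length used the longest APPRIS principal transcript of GENCODE M21 (GRCm38), and the trend with length and GC content a loess fit over genes with at least 1000 reads. Annotated lengths were found for 99.6% of genes.

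The 10 genes, the lists and the tests were chosen with earlier results of these data known. Genes named outside the 10 were the most read of each list, list members with at least 1000 reads past the threshold, ferritin pseudogenes and the 3 genes ranked on either side of Hmox1. Others were named after their values were seen. Single values of some list members are not reported here. The 11 alternatives planned and 1 added are described in the closing section.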

Additional observations from a re-analysis of the deposited data

How the results depend on the processing

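The number of the 10 genes past the 2-fold threshold was 4, and 2 under scaling to library totals and 2 after removal of the trend with length and GC content, because Fth1 and Ftl1 then dropped under it. It was 3 under scaling to homeostatic microglial genes, with Ftl1 at 0.97 (22.4% of all tested genes higher and 22.5% lower). Scaling to library totals lowered the ratio of every gene by 0.14 on the log2 scale, and the median of the 10 became 0.22. The share of tested genes past the threshold was then 21.6% higher and 23.6% lower. The number of other heme and iron genes higher in Cd11c-active was 15, 11 under library totals (Abcb10, Urod, Nfs1 and Srxn1 dropped under the threshold), 12 with the trend removed, 14 under scaling to homeostatic microglial genes, 7 with at least 200 reads required (14.1% of all genes tested there) and 28 at a 1.5-fold threshold (30.6%). Of the 12 alternatives, those on read filters, the threshold and the number of neighbours leave a gene's ratio as it is. Over the 7 that recompute it, Hmox1 ranged from 1.20 to 1.51 and Blvrb from 1.12 to 1.45, past the threshold in all 7. With the pseudogene reads as the eighth, Fth1 (0.93 to 1.10) was past it in 6 of 8 and Ftl1 (0.44 to 1.03) in 5 of 8. The 2 alternatives that leave genes out before TMM moved the median of all genes by -0.00040 (ribosomal and mitochondrial genes) and 0.00015 (endothelial and pericyte genes). Of the 10 genes, Slc48a1 changed sign (-0.07 to 0.10). Leaving endothelial and pericyte genes out was chosen after seeing the data. No paired analysis was possible because each group had 1 library. The counting interval of Blvra (-0.42 to 0.15) holds 0, so a difference was not detectable at this depth. That of Blvrb (1.17 to 1.74) lies past the threshold but covers counting error only. The ratio of Blvrb lay inside the range of its 500 nearest genes in reads (-2.32 to 3.83). With the trend with length and GC content removed it was 1.12, below its counting interval.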

Other observations

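Outside the 10 genes, 19 tested protein-coding genes held the iron responsive element hairpin in an annotated UTR by the same search. Of all 18 genes with a match in the 3' UTR, Tfrc included, 2 were higher in Cd11c-active by the 2-fold threshold, Cxcl16 (924 and 408 reads) and Lrrc40 (245 and 61). Another 2 were lower, Wars2 (79 and 316) and Zbtb44 (322 and 940), and the median log2 ratio was -0.40; of all tested genes 23.3% were higher and 21.6% lower. Of the 5 with a match in the 5' UTR, 3 were higher by the threshold and 0 lower, with a median of 1.03; Fth1, Ftl1 and Slc40a1 are among these 5. The others were the pseudogene Ftl1-ps1 (89 and 11 reads, ratio 3.15) and Wdfy1 (267 and 309 reads, ratio -0.02). Those named here were chosen after their values were seen.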
